A study of Canis lupus familiaris with 4 samples.

Results

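The miRNAs examined here are those of striated muscle: miR-1, miR-133, miR-206, miR-208 and miR-499. Members were selected by name, as rows of the deposited miRNA table called cfa-mir-1-1, cfa-mir-1-2, cfa-mir-133a, cfa-mir-133b, cfa-mir-133c, cfa-mir-206, cfa-mir-208a, cfa-mir-208b and cfa-mir-499, which makes 9 of the 673 rows. Rows with equal values in all 4 libraries were grouped by those values and counted once. This joined cfa-mir-1-1 with cfa-mir-1-2 (miR-1) and cfa-mir-133a with cfa-mir-133c (miR-133a), so the 9 rows hold 7 miRNA names, 5 of them above 0 in at least 1 library. The family was taken up with the difference of miR-1 between the cell lines already known, and the values of miR-1 are therefore a description.

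The libraries were made from small RNA of extracellular vesicles (EVs) released by canine mammary gland adenocarcinoma cells. CHMp cells come from a primary tumor and give pTDEs, and CHMm cells come from a metastasis and give mTDEs, with 2 libraries per cell line. Both lines were grown in the same RPMI medium with serum and gentamicin and were then kept without serum and antibiotics while the EVs accumulated. No treatment separated the groups. Each group is 1 cell line, so a difference between pTDEs and mTDEs is a difference between these lines and not between primary tumors and metastases at large. The study also made single-cell clones with luciferase, and it does not say whether these gave the sequenced EVs. The study calls the replicates biological. The methods name 2 sequencing instruments and the labels do not say which library was read on which. Nor do they tell whether they were separate cultures, so the p-values measure the spread between libraries.

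In muscle, these miRNAs are known as myomiRs. miR-1 and miR-133a are processed from a shared primary transcript, which exists in more than 1 genomic copy, and miR-206 and miR-133b come from a related transcript of skeletal muscle. miR-208a, miR-208b and miR-499 lie in introns of myosin heavy chain genes and are produced together with their hosts. miR-1 and miR-206 carry the same seed and can repress overlapping targets, miR-133a and miR-133b differ only near their 3′ end, and miR-208 and miR-499 are related in their seeds. miR-1 and miR-206 favor muscle differentiation, whereas miR-133 is known for its part in myoblast proliferation.

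The RefSeq annotation of the UU_Cfam_GSD_1.0 dog assembly, in which all 9 rows were found by name, shows the same arrangement. MIR1-2 and MIR133A are neighbors within the span of the ubiquitin ligase gene MIB1 on chromosome 7, and MIR1-1 is the neighbor of MIR133C on chromosome 24. MIR206 and MIR133B are neighbors on chromosome 12. MIR208A lies within MYH6 and MIR208B within MYH7 on chromosome 8, and MIR499 lies within MYH7B on chromosome 24. Each miR-1 copy thus has a miR-133 partner, and because the copies had equal values the reads cannot be assigned to a locus. The authors mapped to CanFam3.1, so no coordinates of the other assembly are given.

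Levels are given in counts per 1000000 reads (CPM) and as reads, both recovered from the deposited values. The pTDE libraries held 6296519 (replicate 1) and 5053540 (replicate 2) reads, and the mTDE libraries 3457171 (replicate 1) and 2330384 (replicate 2). Where a row is at 0, 3 reads were used as its upper limit, equal to 0.476 and 0.594 CPM for pTDE replicates 1 and 2 and to 0.868 and 1.29 CPM for mTDE replicates 1 and 2. Small read numbers were rarer in mTDEs. Of the distinct rows above 0, 9.87% and 14.7% had 1 to 11 reads in pTDE replicates 1 and 2, against 2.24% and 4.07% in mTDE replicates 1 and 2. The 10th percentile of the reads above 0 was 12 and 8 in the pTDE libraries and 24 and 20 in the mTDE libraries. Read numbers from 1 to 40 were mostly even, in 65.2% to 84.4% of the rows of a library, where the forward and reverse reads of a sample had been merged. A value of 0 in mTDEs can therefore stand for more than 3 reads, and limits of 6 reads or of the 10th percentile are given beside the 3-read limit where a value rests on it. Intervals and limits describe the error of counting alone, because reads copied by PCR are not separate molecules.

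Of the marker miRNAs of epithelial cells, the cell type of the tumors, all 7 were above 0 in both mTDE libraries and summed to 23718 and 26413 CPM. In pTDEs 4 of the 7 (cfa-mir-141, cfa-mir-200a, cfa-mir-200b and cfa-mir-429) were at 0 in both libraries, and the list summed to 73.9 and 104 CPM. The muscle miRNAs, each counted once, summed to 286 and 389 CPM in pTDE replicates 1 and 2 and to 19.7 and 149 CPM in mTDE replicates 1 and 2. As EVs were sequenced in bulk, a larger number of EVs that carry a miRNA and more copies per EV cannot be told apart.

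Among the members, miR-133a had the highest level in each of the 3 libraries in which it was found, and miR-1 was found in pTDEs only. miR-499 was the only member found in all 4 libraries. miR-133b was highest in mTDE replicate 2, miR-206 was represented by 1 read, and miR-208a and miR-208b were listed at 0 in every library.

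The level of miR-1 in pTDEs was 61.6 CPM in replicate 1, from 388 reads, and 21.8 CPM in replicate 2, from 110 reads. Both mTDE libraries were at 0. The 2 cell lines did not overlap. The pTDE mean of 41.7 ± 28.2 CPM (SD, n = 2) was higher than that of mTDEs by at least 38.7-fold when mTDEs are set at 3 reads and by at least 19.3-fold when they are set at 6 reads. Against the 10th percentile of the mTDE reads the ratio was 5.37-fold, and 2.80-fold without pTDE replicate 1. Without pTDE replicate 1 the 3-read bound was at least 20.2-fold. Being above 0 in both pTDE libraries and at 0 in both mTDE libraries was shared with 11.3% of the 326 rows tested. In this and later shares of the rows tested, copies with equal values count separately.

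miR-133a was at 168 CPM (1057 reads) in pTDE replicate 1, 346 CPM (1747 reads) in pTDE replicate 2, 0 in mTDE replicate 1 and 111 CPM (259 reads) in mTDE replicate 2. Both pTDE libraries lay above both mTDE libraries, as they did for miR-1. Of all rows tested, 26.1% had both pTDE libraries above both mTDE libraries. Both miRNAs entered the fit through their pTDE levels alone, so their count is not read against that share. The larger gap, however, was within mTDEs. The level in mTDE replicate 2 exceeded that of mTDE replicate 1 by at least 128-fold when the latter is set at 3 reads, by at least 64.1-fold at 6 reads, and was 16.0-fold above the 10th percentile of the reads in mTDE replicate 1. The pTDE mean was 257 ± 126 CPM (SD, n = 2). That of mTDEs was 55.6 ± 78.6 CPM (SD, n = 2), so that the SD exceeded the mean.

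**Figure D1:**
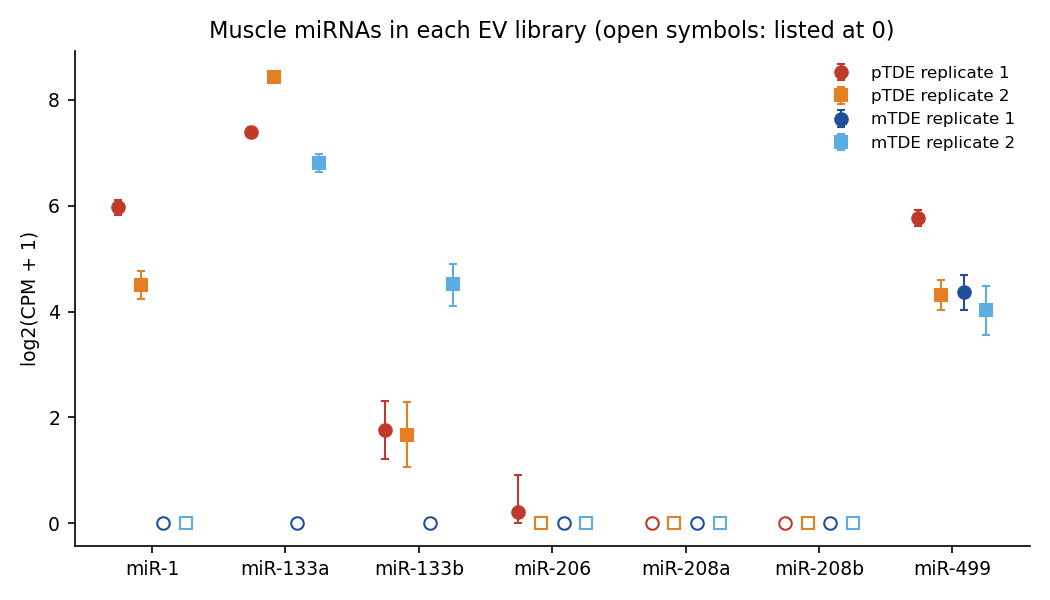
Level of each muscle miRNA in the 4 EV libraries as log2(CPM + 1). Circles and squares are replicates 1 and 2, bars are exact 95% Poisson intervals of the reads (counting error only), and open symbols are libraries listed at 0. miR-1 is at 0 in both mTDE libraries, miR-133a and miR-133b are at 0 in mTDE replicate 1 but not in mTDE replicate 2, and miR-499 is found in all 4 libraries.

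miR-133b, the partner of miR-206, was at 2.38 CPM (15 reads) in pTDE replicate 1, 2.18 CPM (11 reads) in pTDE replicate 2, 0 in mTDE replicate 1 and 21.9 CPM (51 reads) in mTDE replicate 2. The pTDE libraries were close to each other, and the mTDE libraries lay on either side of them. Set at 3 reads, mTDE replicate 1 was lower than mTDE replicate 2 by at least 25.2-fold, while replicate 2 was 3.15-fold above the 10th percentile of the reads in replicate 1. miR-206 had 1 read (0.160 CPM) in pTDE replicate 1 and was listed at 0 in the other 3 libraries, so no fold is given. miR-208a, which the heart expresses with alpha myosin, and miR-208b, which is expressed with beta myosin, were listed at 0 throughout. Under the 3-read limit each of them lay below 0.476 to 1.29 CPM, depending on the library, and under the 10th percentile of the reads below 1.58 to 8.58 CPM.

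miR-499, the intronic miRNA of MYH7B, was at 53.5 CPM (337 reads) in pTDE replicate 1, 19.0 CPM (96 reads) in pTDE replicate 2, 19.7 CPM (68 reads) in mTDE replicate 1 and 15.4 CPM (36 reads) in mTDE replicate 2. Only pTDE replicate 1 stood apart, and the cell lines overlapped. With n = 2 each, the pTDE mean was 36.3 ± 24.4 CPM (SD) and the mTDE mean 17.6 ± 2.99 CPM (SD). The absence of the other members from mTDE replicate 1 was thus not shared by miR-499, whose level there was between those of pTDE replicate 2 and pTDE replicate 1.

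The partners of the shared transcripts were next compared within each library, where both members of a pair have the same library size. miR-1 made up 26.9% of the miR-1 and miR-133a reads in pTDE replicate 1 (388 of 1445, 95% exact binomial interval 24.6% to 29.2%). In pTDE replicate 2 it made up 5.92% (110 of 1857, interval 4.89% to 7.10%). The pTDE intervals do not overlap, and the mean share was 16.4% ± 14.8 (SD, n = 2). Between these libraries miR-1 was 2.83-fold lower in replicate 2 and miR-133a was 2.06-fold higher, so the partners differed in opposite directions. In mTDE replicate 2, 0 of 259 reads were from miR-1, with an exact 95% upper end of 1.41%. Had 3 reads of miR-1 been missed, and with missed reads added to the total in this and later shares, the share would be 1.15%, and it would be 2.26% with 6 reads. It would be 7.17% (20 of 279) at the 10th percentile of the reads, above the share in pTDE replicate 2 and below the interval of pTDE replicate 1, so a share as large as in pTDE replicate 2 is not excluded at that limit. In mTDE replicate 1 neither partner had a read and no share can be given. With 2 libraries per cell line an exact two-sided permutation test cannot give a p below 0.333, and the shares were not tested between the lines.

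miR-133b and miR-206 could be compared only at low reads. miR-133b made up 15 of 16 reads in pTDE replicate 1, all 11 in pTDE replicate 2 and all 51 in mTDE replicate 2, while mTDE replicate 1 had none of either. The lower end of the 95% exact binomial interval of the share was 69.8%, 71.5% and 93.0% in these 3 libraries. At the 10th percentile of the reads for miR-206, the share of miR-133b would be 57.9% in pTDE replicate 2 and 71.8% in mTDE replicate 2. In each of the 3 libraries miR-133b thus had more reads than its partner under these limits.

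miR-133b was also set beside miR-133a, with which it could share reads because the mature forms are near-identical. How the quantification divided such reads is not given in the sources used here, and the levels of miR-133b are uncertain for this reason. miR-133b took 1.40% of the miR-133a and miR-133b reads in pTDE replicate 1 (95% exact binomial interval 0.785% to 2.30%) and 0.626% in pTDE replicate 2 (0.313% to 1.12%). In mTDE replicate 2 it took 16.5% (51 of 310 reads, interval 12.5% to 21.1%), above both pTDE intervals. If merged forward and reverse reads came from the same fragments, the true intervals are wider than these. They also leave out the spread between libraries, and these shares were not tested between the lines.

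**Figure D2:**
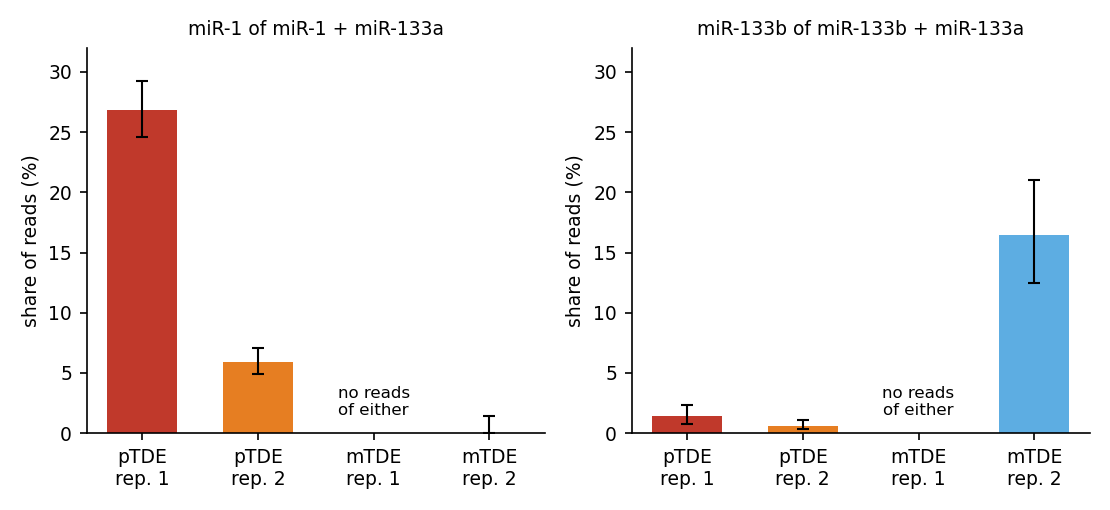
Share of miR-1 in the reads of miR-1 and miR-133a (left) and share of miR-133b in the reads of miR-133b and miR-133a (right), in percent, for each library. Bars are the shares and error bars are exact 95% binomial intervals. The share of miR-1 is 26.9% and 5.92% in the pTDE libraries and 0 in mTDE replicate 2, and the share of miR-133b is highest in mTDE replicate 2, at 16.5%.

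miR-1 and miR-499, which do not share a transcript, had nearly the same ratio in both pTDE libraries. This pair was added after its values were seen. miR-1 made up 53.5% of the miR-1 and miR-499 reads in pTDE replicate 1 (388 of 725) and 53.4% in pTDE replicate 2 (110 reads of miR-1), with 95% exact binomial intervals of 49.8% to 57.2% and 46.3% to 60.4%. Both were lower in replicate 2, miR-1 by 2.83-fold and miR-499 by 2.82-fold. Of 276 other distinct rows above 0 in both pTDE libraries, 12 (4.35%), miR-499 among them, differed between replicates within 0.1 of miR-1 on the log2(CPM + 1) scale, so the likeness is not particular to this pair. In mTDEs 0 of 68 and 0 of 36 reads were from miR-1, with exact 95% upper ends of 5.28% in replicate 1 and 9.74% in replicate 2. With 3 missed reads the shares would be 4.23% and 7.69%. At the 10th percentile of the reads these shares would be 26.1% and 35.7%, still below both pTDE intervals. The intervals leave out the spread between libraries, and the shares were not tested between the lines.

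The spread between replicates was set against that of all miRNAs, with rows of equal values counted once. In pTDEs the absolute difference between replicates on the log2(CPM + 1) scale had a median of 0.64 over 277 rows above 0 in both libraries. It was 1.46 for miR-1, 1.45 for miR-499, 1.04 for miR-133a and 0.09 for miR-133b. Of the 277 rows, 17.3% differed by more than miR-1 and 29.6% by more than miR-133a. In mTDEs the median was 0.97 over 232 rows, and miR-499 differed by 0.33. A further 63 distinct rows were at 0 in mTDE replicate 1 and above 0 in mTDE replicate 2, of which 19 reached 20 CPM. Among the 63, miR-133a had the highest level, followed by cfa-mir-299 at 54.9 CPM, which was named after its values were seen. In the other direction, 36 rows were at 0 in mTDE replicate 2 only, and 2 of them reached 20 CPM. In pTDEs 29 and 27 rows were found in 1 library alone, none of them at 20 CPM.

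**Figure D3:**
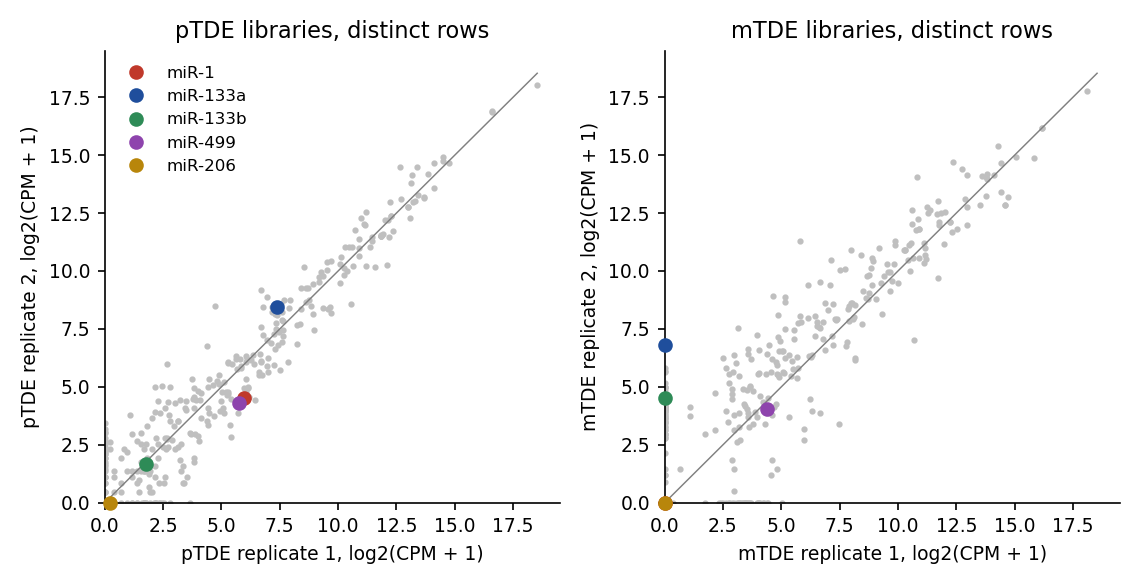
Replicate 2 against replicate 1 on the log2(CPM + 1) scale for pTDEs (left) and mTDEs (right). Gray points are all distinct rows, colored points are the muscle miRNAs, and the line marks equal levels. In mTDEs miR-133a and miR-133b lie on the vertical axis at 111 and 21.9 CPM in replicate 2, and miR-1 lies at the origin under the point of miR-206.

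To set the 2 lines against each other, limma was fitted to log2(CPM + 1) for all 326 rows found in both libraries of either line, and p-values were adjusted over these rows by the Benjamini-Hochberg method. Positive log2 fold changes mean higher levels in pTDEs. Fold changes on this scale depend on the added 1 CPM where a library is at 0. None of the 4 distinct members tested passed an adjusted p of 0.05, which 1.84% of all rows did. At an unadjusted p under 0.05, 1 member (miR-1) passed, beside 19.6% of all rows. As miR-1 and miR-133a entered the fit through their pTDE levels alone, the member counts are not read against these shares. With limma voom on the recovered reads miR-1 passed after adjustment, when 5 of all rows tested were called higher and 11 lower in pTDEs. Of the 5, 2 were the copies of miR-1. Because its difference was known when the family was taken up, the p-values of miR-1 restate that difference. miR-206, miR-208a and miR-208b were not above 0 in both libraries of a line and were not tested.

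In this fit miR-1 had the highest log2 fold change toward pTDEs, 5.24 (standard error 0.83, limma adjusted p = 0.0551). By size in either direction it ranked 10 of the 326 rows. With 5 CPM added in place of 1 it was 3.08, below the 3.35 of miR-133a, and with 0.1 CPM it was 8.52. The limma adjusted p of miR-1 was under 0.05 in 6 of 11 other fits with all 4 libraries, so the call rested on the fit. With 1 library left out its log2 fold change was 4.51 to 5.97. Without a pTDE library the only spread left for miR-1 is that of mTDEs, where both libraries are at 0, so no p-value is given. The log2 fold change of miR-133a was 4.51, the fifth highest row, but with a standard error of 2.43 (limma adjusted p = 0.353). This standard error was the largest of all rows tested, where the median was 0.81. It follows the gap between the mTDE libraries: without mTDE replicate 1 the log2 fold change was 1.11, and without mTDE replicate 2 it was 7.92. For miR-133b the estimate was -0.55 (standard error 1.62, limma adjusted p = 0.870), with a 95% interval from -4.90 to 3.80. It was -2.80 without mTDE replicate 1 and 1.71 without mTDE replicate 2, so its direction depended on which mTDE library was kept. miR-499 had 0.84 (standard error 0.96, limma adjusted p = 0.657), with a 95% interval from -1.73 to 3.41. Differences of miR-499 of up to 3.41 on this scale are within the interval, and the test does not show equal levels.

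**Figure D4:**
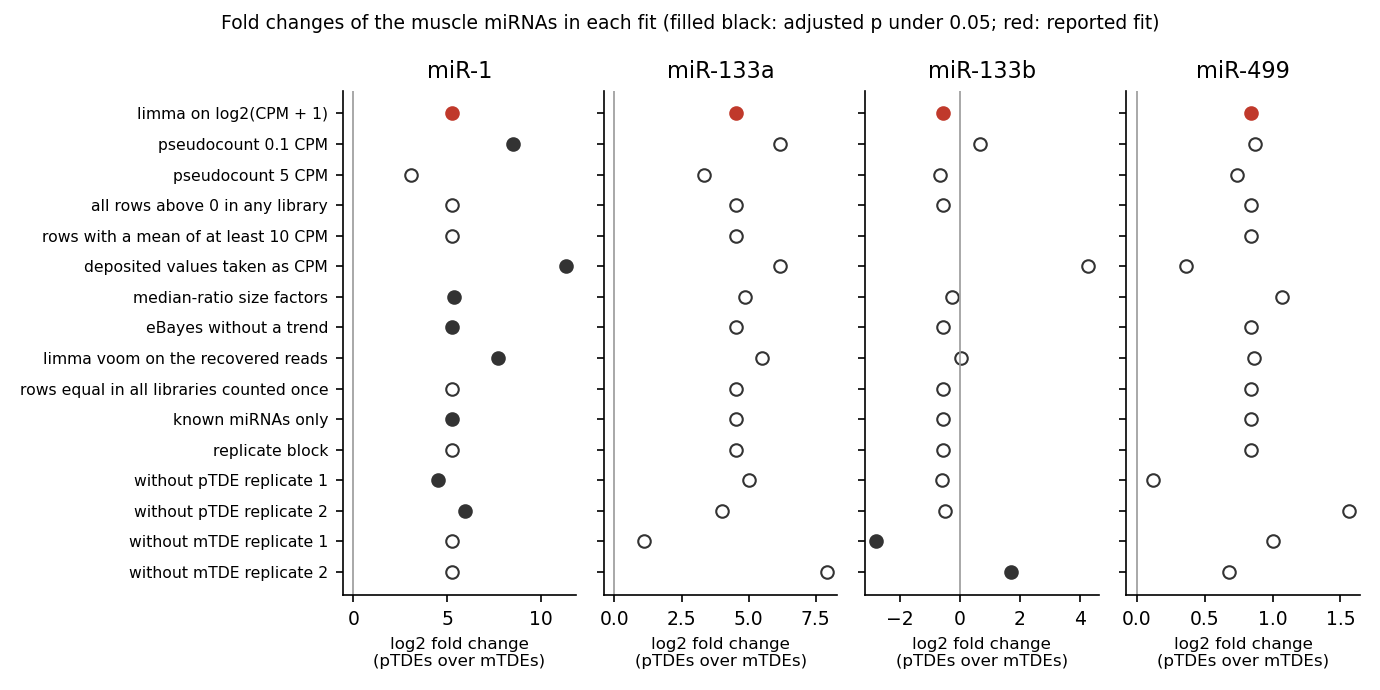
Log2 fold change (pTDEs over mTDEs) of the 4 members tested, one panel each with its own horizontal scale, in the reported limma fit (red) and in each other fit (filled black where the adjusted p was under 0.05, open otherwise). miR-1, miR-133a and miR-499 are positive in every fit, and miR-133b lies at -2.80 or 1.71 depending on which mTDE library is left out.

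Markers of other cell types differed between the same libraries. Blood cell miRNAs (cfa-mir-142, cfa-mir-144, cfa-mir-150, cfa-mir-223 and cfa-mir-451) summed to 151 and 545 CPM in pTDE replicates 1 and 2 and to 220 and 1621 CPM in mTDE replicates 1 and 2, and 4 of the 5 were above 0 in every library. cfa-mir-451, the erythrocyte miRNA, made up most of this, with 123, 465, 138 and 1423 CPM in the same order, while cfa-mir-144 was at 0 in all 4. The endothelial cfa-mir-126 was at 3.49 and 30.8 CPM in pTDEs and at 0 and 27.5 CPM in mTDEs. In both cell lines, replicate 2 had the higher blood cell sum, the higher cfa-mir-126 and the higher miR-133a, whereas miR-499 was lower in replicate 2, as was miR-1 in pTDEs. How many of all rows were higher in replicate 2 of both lines was not counted, so the shared direction is a description. The liver miRNA cfa-mir-122 was at 158 and 98.5 CPM in pTDEs and at 364 and 570 CPM in mTDEs. The nerve list (3 copies each of cfa-mir-9 and cfa-mir-124, each counted once) summed to 1605 and 1186 CPM in pTDEs and 852 and 749 CPM in mTDEs, nearly all of it miR-9, with miR-124 at 0 in both mTDE libraries. The part of blood, vessel, liver or nerve RNA in the muscle miRNA levels was not tested.

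Other miRNAs with known roles in muscle, which are also widely expressed elsewhere, were tested in the same fit. Of the 19 listed rows, cfa-mir-486 was not in the table under that name. The other 18 were in the table and were tested, among them copies with equal values, which leave 14 distinct rows. None passed an adjusted p of 0.05 in limma or in limma voom, and none an unadjusted p of 0.05 in limma, thresholds that 1.84% and 19.6% of all rows tested passed in limma. Their difference from the muscle miRNAs was not tested. Over the 18 rows, with copies counted separately, the median log2 fold change was -0.55, beside -0.03 over all rows tested, with 7 positive and 11 negative values. The highest of the 18 was 1.91 for cfa-mir-503 (limma adjusted p = 0.319) and the lowest -1.18 for cfa-mir-22 (limma adjusted p = 0.341), which promotes growth of the heart muscle. The row cfa-mir-486-3p, outside the list and named after its values were seen, was lower, at -2.07 (limma adjusted p = 0.283). cfa-mir-424, which is produced together with cfa-mir-503, was the only row of the list at 0 in mTDE replicate 1. It reached 35.2 CPM in mTDE replicate 2, and 13.2 and 22.9 CPM in pTDE replicates 1 and 2.

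The miRNAs with the most similar pattern were found by the Euclidean distance on log2(CPM + 1) over the 4 libraries, among 377 other distinct rows. Those nearest to miR-1 were cfa-mir-889 (distance 0.97), cfa_novel_141 (1.07) and cfa-mir-455 (2.06), all at 0 in both mTDE libraries. miR-499 lay nearest to cfa-mir-130b (0.86), cfa-mir-592 (0.97) and cfa-mir-582 (1.0). The nearest rows to miR-133b were cfa-mir-433 (0.92), cfa-mir-190a (1.0) and cfa-mir-497 (1.17), which were all at 0 in mTDE replicate 1 and at 14.2 to 22.3 CPM in mTDE replicate 2. miR-133a had no close match. The first, cfa-mir-204, was at a distance of 3.30, with 338 and 610 CPM in pTDEs and 5.78 and 45.5 CPM in mTDEs, followed by cfa-mir-379 (4.18) and cfa-mir-146b (4.35).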

How the data were processed

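Small RNA of EVs from CHMp and CHMm cells was sequenced, with 2 libraries per cell line. The authors used cutadapt (adapter and length trimming) and FastQC, pooled both reads of each pair, and counted miRBase and predicted miRNAs with miRDeep2 and the CanFam3.1 genome; tool versions are not given in the sources used here. The values deposited per library are a score: whole numbers described as CPM, whose totals are near 1000000 but whose low values are unevenly spaced. The 5 columns of the authors' own edgeR comparison (log2 fold change, average log2 CPM, likelihood ratio score, p-value and false discovery rate) are also deposited and were not used.

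CPM was computed as 2^(value/s) - 1, with s solved per library for a total of 1000000. The worth of 1 read is the largest step that divides all values under 20 CPM within rounding (100% of them in each library), from 0.159 to 0.429 CPM. Above about 100 CPM, rounding leaves reads uncertain, by up to 1.23 reads for miR-133a. Python 3.11.15 (numpy 2.4.6, pandas 2.3.3, scipy 1.17.1) and R 4.3.3 with limma 3.58.1 (eBayes with trend, pseudocount of 1 CPM) were used. The variance prior carried 2.4 degrees of freedom. Conversion and fit were tested on simulated data.

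The members, lists and tests were chosen with earlier results of these data known. Named rows are all members, the 3 nearest patterns of each member found in both libraries of a line, list rows on which a result turns, and cfa-mir-299 and cfa-mir-486-3p, named after their values were seen. Alternatives were pseudocounts of 0.1 and 5 CPM, 2 other filters, the deposited values as CPM, median-ratio scaling, no trend, voom, equal rows once, known rows only, a replicate block, each library left out and a 6-read limit; the 10th percentile limit, and both other limits on the shares, were added after seeing the data.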

Additional observations from a re-analysis of the deposited data

How the results depend on the processing

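The number of members called was 0 in the reported limma fit and with a pseudocount of 5 CPM, both other filters, equal rows counted once and the replicate block. It was 1 (miR-1) with voom, median-ratio scaling, known rows alone, no eBayes trend, deposited values read as CPM and a 0.1 CPM pseudocount. These fits tested the same 326 rows, apart from known rows alone, and the rows called in each are given below. With 1 library left out, the lone library of a line is assumed to vary like the other line, so no calls are read from those fits. For miR-1 the adjusted p ranged from 7.9e-05 to 0.233 over 11 fits, for miR-133a from 0.232 to 0.545, for miR-499 from 0.510 to 0.692 and for miR-133b from 0.548 to 0.993 over 10. miR-1, miR-133a and miR-499 were positive in every fit, from 0.12 to 1.56 for miR-499 with 1 library left out. miR-133b turned from -0.55 to 0.68 with the 0.1 CPM pseudocount, 4.27 with deposited values read as CPM and 0.0416 with voom, and went from -2.80 to 1.71 with 1 library left out. The cause was not tested for the fits with all 4 libraries.

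Over all rows, 0 were called higher in pTDEs (28 with the 0.1 CPM pseudocount, 39 with deposited values read as CPM, 5 each with voom and median-ratio scaling, 4 each with known rows alone and no eBayes trend, and 0 to 57 with 1 library left out). Lower in pTDEs were 6 (11 each with voom, the 0.1 CPM pseudocount and deposited values read as CPM, 9 with median-ratio scaling, and 4 to 49 with 1 library left out). Median-ratio scaling moved the median of all rows by 0.25. With the replicate number as a block, 0 members and 0 and 7 rows were called higher and lower; same-numbered libraries had deviations correlated at 0.15, and the labels do not say that a number marks a shared batch. The mean miR-1 share in pTDEs was 16.4%, 39.7% with deposited values read as CPM, and 5.92% to 26.9% with 1 library left out. The mean share of miR-133b beside miR-206 in pTDEs was 96.9%, 94.6% with deposited values read as CPM and 93.8% to 100% with 1 library left out. With miR-206 at 6 reads or the 10th percentile, the share fell to 64.7% and 57.9% in pTDE replicate 2 and to 89.5% and 71.8% in mTDE replicate 2. The bound on miR-1 of 38.7-fold was 5.37-fold at the 10th percentile limit, and 20.2-fold to 57.2-fold with 1 library left out. With 2 libraries per line, depth and the rarity of small read numbers in mTDEs limit what a value of 0 can show.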
